A study of Mus musculus with 11 samples.

Results

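The inflammatory CC chemokines Ccl2, Ccl3, Ccl4, Ccl5, Ccl6, Ccl7, Ccl8 and Ccl9, together with the receptor Ccr2, were followed across microarrays of mouse aortic adventitia, the connective tissue sheath around the artery. These 9 genes were chosen by name, out of 12393 genes that had at least 1 probe set assigned to a single gene symbol. They were read by 13 probe sets, 3 for Ccr2, 2 each for Ccl6 and Ccl9, and 1 for each of the other genes. Of these, 12 probe sets passed the filter on low signals and were tested, and the remaining Ccr2 probe set is described without the filter.

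The samples were laser-microdissected adventitia of the abdominal aorta from male mice aged 78 weeks on normal chow, in 3 groups. The ATLO group (4 arrays) was Apoe-deficient adventitia (strain B6.129P2-Apoe tm1Unc/J) that carried artery tertiary lymphoid organs, aggregates of lymphocytes and myeloid cells beside atherosclerotic plaques. The outside-lesion group (4 arrays) was adventitia of the same strain taken away from lesions, although the design text describes it as coming from mice without lesions. The wild-type group (3 arrays) was adventitia of C57BL mice, whose sample titles also carry the unexplained letters PNS. Each Apoe-deficient sample pooled 200 sections of 10 µm, from an aorta frozen with its lymph nodes, fat and connective tissue. No label says that the replicates came from separate animals, so p-values here speak of the spread among these samples alone, which may be technical. ATLO tissue was dissected for its lymphoid aggregates, so its leukocyte content is part of how the group was chosen. RNA of the Apoe-deficient groups was extracted with phenol and chloroform and transcribed for 68 hours, while wild-type RNA was extracted with a lipid tissue kit and transcribed for 24 hours. Genotype and protocol therefore cannot be told apart in either comparison with wild type.

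Signals were scaled to the same trimmed mean on every array (500.2 to 500.3), and array medians lay between 151.5 and 191.0. Apoe, the gene inactivated in this strain, averaged 134 ± 31.1 in ATLO and 110 ± 67.0 outside the lesion (SD, n = 4 each), against 12417 ± 651 in wild type (n = 3). The ratio of the 3′ to the 5′ actin control probe sets, which rises as RNA is degraded or copied incompletely, was 4.61 ± 2.71 in ATLO, 8.71 ± 2.83 outside the lesion and 4.98 ± 0.685 in wild type. In exact two-sided permutation tests of this ratio, ATLO gave p = 0.114 when set against the outside-lesion arrays and p = 0.8 when set against wild type. Outside-lesion arrays gave an exact permutation p = 0.0571 when set against wild type, the smallest value that 4 against 3 arrays can give.

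Chemokines are small secreted proteins that guide leukocytes through G protein-coupled receptors. Inflammatory CC chemokines are induced at sites of injury and infection, in contrast to the homeostatic chemokines that organise lymphoid tissue. Ccr2 brings inflammatory monocytes out of the bone marrow and into tissue in response to Ccl2 and Ccl7, and mice lacking Ccl2 or Ccr2 develop less atherosclerosis. Ccl3, Ccl4 and Ccl5 attract T cells, natural killer cells and macrophages, and Ccl6 and Ccl9 are rodent chemokines of myeloid cells that act on Ccr1. Mouse Ccl8 acts mainly on Ccr8.

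The members lie in 2 groups on mouse chromosome 11 and in the receptor group on chromosome 9. By the RefSeq annotation of GRCm38.p6, the order is Ccl2, Ccl7, Ccl11, Ccl12, Ccl8 and Ccl1 in the first group, Ccl5, Ccl9, Ccl6, Ccl3 and Ccl4 in the second, and Ccr1, Ccr1l1, Ccr3 and Ccr2 on chromosome 9. RefSeq promoter windows, running from 250 bases before to 50 bases after the annotated start, were matched for 5 members (Ccr2, Ccl8, Ccl9, Ccl6 and Ccl3). Ccr2, Ccl8, Ccl9 and Ccl3 each differed between groups in a comparison below, and the Ccl3 window is not printed. Those of Ccr2, Ccl8 and Ccl9 are shown 5′ to 3′ on the strand of the gene, with motif matches in capitals.
Ccr2, chr9:124101933-124102232, plus strand: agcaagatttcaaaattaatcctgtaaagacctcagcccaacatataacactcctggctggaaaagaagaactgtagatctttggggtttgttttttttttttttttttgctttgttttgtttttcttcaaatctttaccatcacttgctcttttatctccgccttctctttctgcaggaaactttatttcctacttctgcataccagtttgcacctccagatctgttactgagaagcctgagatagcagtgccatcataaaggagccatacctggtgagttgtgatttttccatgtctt
Ccl8, chr11:82114935-82115234, plus strand: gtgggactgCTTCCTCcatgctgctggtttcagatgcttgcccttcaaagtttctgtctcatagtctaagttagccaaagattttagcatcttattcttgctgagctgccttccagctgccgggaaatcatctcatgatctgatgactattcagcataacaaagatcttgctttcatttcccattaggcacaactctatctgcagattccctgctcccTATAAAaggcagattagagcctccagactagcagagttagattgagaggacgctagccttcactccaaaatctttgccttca
Ccl9, chr11:83578587-83578886, minus strand: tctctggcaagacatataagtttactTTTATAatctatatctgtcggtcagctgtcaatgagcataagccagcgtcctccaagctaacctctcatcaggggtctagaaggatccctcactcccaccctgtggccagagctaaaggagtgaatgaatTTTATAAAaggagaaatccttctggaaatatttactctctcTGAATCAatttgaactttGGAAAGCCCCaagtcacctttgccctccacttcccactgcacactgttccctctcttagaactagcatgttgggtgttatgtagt

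6 motifs were searched on both strands of these windows: the kappaB consensus, the TATA box as TATAAA, the AP-1 site as TGANTCA, the site of the myeloid factor PU.1 as GAGGAAG, the STAT site as TTCNNNGAA and the core of the interferon-stimulated response element. The Ccl8 window held TATAAA with its first base at position -32 from the start and GAGGAAG, read on the opposite strand, at position -241. The Ccl9 window held a kappaB match at position -35, TGANTCA at -53, and 3 TATAAA matches at -224, -94 and -92, the last pair overlapping each other on opposite strands. The windows of Ccr2, Ccl6 and Ccl3 held none of the 6. Among all 32851 windows of the table, TATAAA was found in 13.6%, GAGGAAG in 13.6%, the kappaB consensus in 8.46%, TTCNNNGAA in 8.30%, TGANTCA in 7.81% and the interferon element in 3.44%. These letters are matches only, and no binding was measured.

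The neighbours Ccl6 and Ccl9 are shown side by side because their signals ran together across the arrays. Their windows share a stretch of 44 bases with 37 matching positions (84.1%). Its first base is at position -29 from the start in Ccl6, and at position 5, after the start, in Ccl9. How often other windows share such a stretch was not counted, and a link to the signals was not tested. Matching bases are in capitals.
Ccl6, chr11:83593073-83593116, minus strand: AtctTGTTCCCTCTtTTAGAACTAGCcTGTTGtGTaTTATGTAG
Ccl9, chr11:83578588-83578631, minus strand: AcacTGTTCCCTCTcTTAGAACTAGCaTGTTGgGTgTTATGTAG

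In ATLO against outside-lesion adventitia, tissue of the same strain with and without lymphoid aggregates, 7 of the 9 genes rose (Ccl2, Ccl3, Ccl5, Ccl7, Ccl8, Ccl9 and Ccr2). Across all 9055 genes tested, 19.8% rose in this comparison. Ccl6 and Ccl4 did not pass the test. In 8 of the 9 genes every ATLO array lay above every outside-lesion array, which was so for 19.2% of all genes, and Ccl4 was the exception. The median log2 change of the 9 was 1.71, against 0.11 over all genes. Ccl3 and Ccl7 passed the filter only through the ATLO arrays and so had to differ, and nothing is drawn from these counts or from the median.

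**Figure D1:**
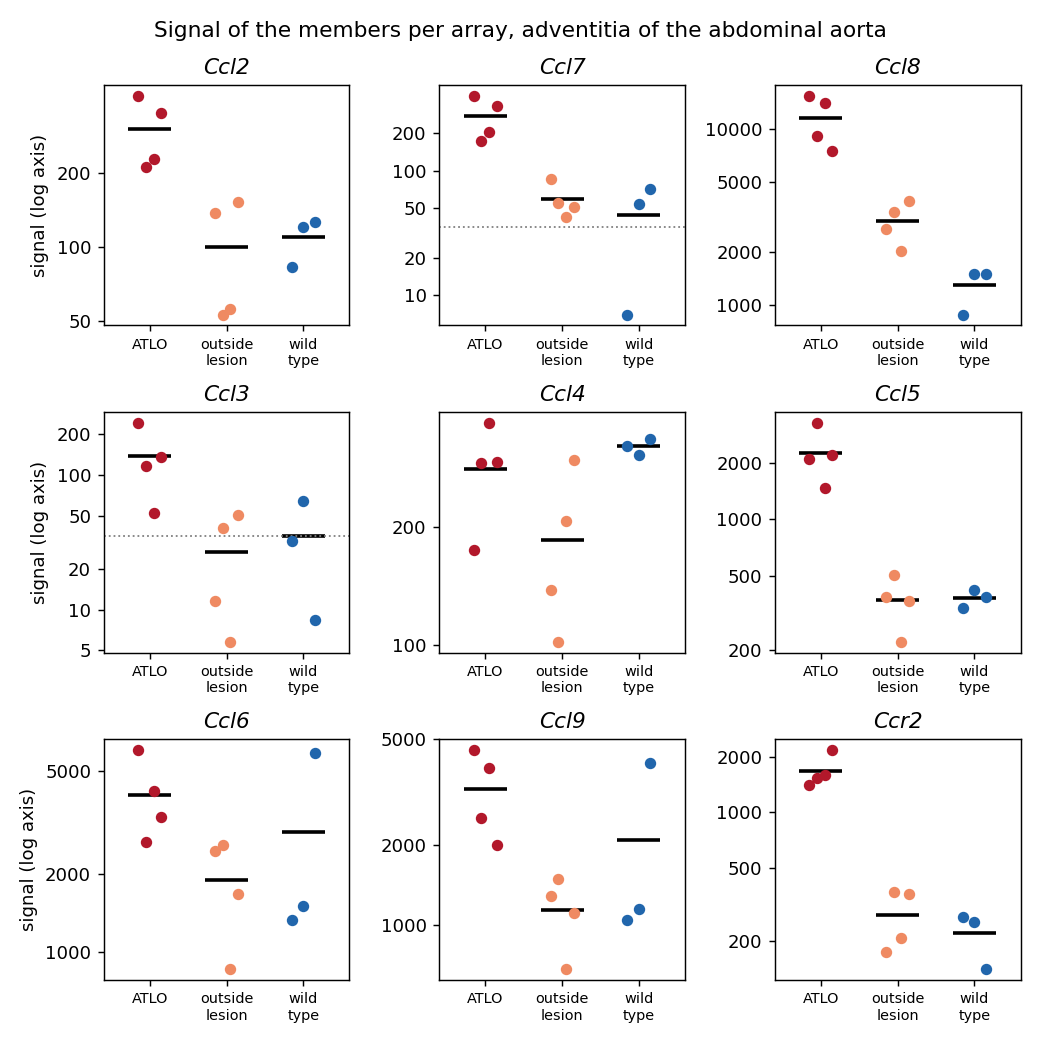
Signal of each gene on a log axis with its own scale, 1 point per array, for ATLO (4 arrays), outside-lesion (4) and wild-type adventitia (3), with the group mean as a bar. The dotted line in the Ccl7 and Ccl3 panels is the floor of 35.1, to which lower signals were raised before testing. Ccl2, Ccl5, Ccl7, Ccl8 and Ccr2 are higher on every ATLO array than on any other array, and wild-type replicate 3 stands high for Ccl6 and Ccl9.

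Among the ligands of Ccr2, Ccl2, the monocyte chemoattractant, read 414.1, 212.9, 229.4 and 351.0 on the ATLO arrays, against 137.5, 53.0, 55.9 and 153.0 outside the lesion. Every ATLO array was above the highest outside-lesion array. The log2 change was 1.71 ± 0.38 (SE), or 3.27-fold (limma, Benjamini-Hochberg adjusted p = 0.00362). In dissected tissue like this, more cells of a type and more RNA per cell cannot be told apart, for this gene or any below.

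Ccl7, which also attracts monocytes, read 399.3, 172.1, 202.8 and 332.9 in ATLO, against 86.5, 55.4, 42.7 and 51.0 outside the lesion. The groups were well separated. Its log2 change was 2.20 ± 0.36 (limma adjusted p = 4.24e-04), and 1.27 with the floor at the 40th percentile (adjusted p = 0.000849). Ccl2 and Ccl7 put the ATLO samples in the same order, with replicate 1 highest, then 4, 3 and 2.

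Ccl8 read 15484.0, 9091.1, 14012.2 and 7523.0 in ATLO, against 2691.2, 3387.5, 2017.4 and 3874.1 outside the lesion. The lowest ATLO array still lay clear of the highest outside-lesion array. It changed by 1.93 ± 0.27 on the log2 scale, or 3.80-fold (limma adjusted p = 1.63e-04).

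Of the macrophage inflammatory proteins, Ccl3 read 243.1, 116.4, 52.7 and 137.0 in ATLO, against 11.6, 40.7, 5.8 and 50.1 outside the lesion. The lowest ATLO array was barely above the highest outside-lesion array. Since 2 outside-lesion arrays lay below the floor, its log2 change of 1.59 ± 0.45 (limma adjusted p = 0.0154) understates the difference in the deposited signals. Ccl3 passed the filter on just 3 ATLO arrays, so leaving out ATLO replicate 1, 2 or 4 removed it from testing. With the floor at the 40th percentile its log2 change was 0.40 (adjusted p = 0.153).

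Ccl4, the neighbour of Ccl3, read 174.4, 290.2, 366.3 and 292.1 in ATLO, against 137.8, 102.1, 206.4 and 295.4 outside the lesion. The groups overlapped, with ATLO replicate 1 low and outside-lesion replicate 4 high. The log2 change was 0.66 ± 0.31 (limma adjusted p = 0.12). It passed the test when ATLO replicate 1 was left out (0.88, adjusted p = 0.0493) or outside-lesion replicate 4 was left out (0.93, adjusted p = 0.0304).

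Ccl5, made largely by activated T cells and natural killer cells, read 2095.5, 3272.6, 1464.9 and 2212.0 in ATLO, against 383.6, 503.4, 221.7 and 366.5 outside the lesion. No ATLO array came near the outside-lesion range. Its change was, on the log2 scale, 2.62 ± 0.26, or 6.13-fold (limma adjusted p = 1.99e-05).

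Of the rodent myeloid chemokines, Ccl9 read 4555.3, 2532.2, 3907.4 and 1998.4 in ATLO, against 1288.4, 1494.1, 683.9 and 1108.2 outside the lesion. The groups did not overlap, and the log2 change was 1.49 ± 0.40 (limma adjusted p = 0.0125). Its second probe set, read as 942.0, 849.4, 658.6 and 413.3 in ATLO against 294.7, 211.4, 113.0 and 209.4 outside the lesion, had a log2 change of 1.80 ± 0.48 (adjusted p = 0.0115). With no filter on low signals, neither Ccl9 probe set passed (adjusted p = 0.0592 and 0.0564).

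Ccl6 read 6037.9, 2664.4, 4180.2 and 3330.2 in ATLO, against 2465.4, 2597.3, 860.1 and 1675.4 outside the lesion. ATLO replicate 2 and outside-lesion replicate 2 nearly met, although no ATLO array fell into the outside-lesion range. The log2 change was 1.15 ± 0.46 (limma adjusted p = 0.0704), and the second probe set gave 0.96 ± 0.37 (adjusted p = 0.0628). Wild-type replicate 3 entered this fit through the shared estimate of the spread, and without it the adjusted p was 0.0192 for the first probe set and 0.0173 for the second, at the same log2 changes.

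Ccr2, the receptor, read 1417.8, 1543.2, 1607.3 and 2181.7 in ATLO, against 172.7, 368.2, 206.9 and 358.5 outside the lesion. All ATLO arrays lay far above the outside-lesion range. The highest was 1.54-fold the lowest, the narrowest such span of the 9 genes. The log2 change was 2.67 ± 0.28, or 6.35-fold (limma adjusted p = 2.49e-05). By this probe set Ccr2 held rank 77 of 9055 genes, counted from the largest rise.

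The second Ccr2 probe set had a log2 change of 1.47 ± 0.23 (limma adjusted p = 3.75e-04), 2.78-fold. It read 482.7, 463.1, 926.9 and 622.8 in ATLO against 247.7, 201.8, 174.1 and 248.4 outside the lesion. The third, below the filter, read 152.1, 233.3, 75.9 and 112.5 in ATLO against 16.6, 24.7, 37.5 and 13.7 outside the lesion. Fitted without the filter, its log2 change was 1.89 ± 0.35 (limma adjusted p = 0.00586). The 3 probe sets thus had the same direction and differed in size.

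With the actin ratio as a covariate, 6 of the genes rose. Ccl3 no longer passed (1.16 ± 0.57, adjusted p = 0.193), and neither did the second Ccl9 probe set (adjusted p = 0.0894).

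**Figure D2:**
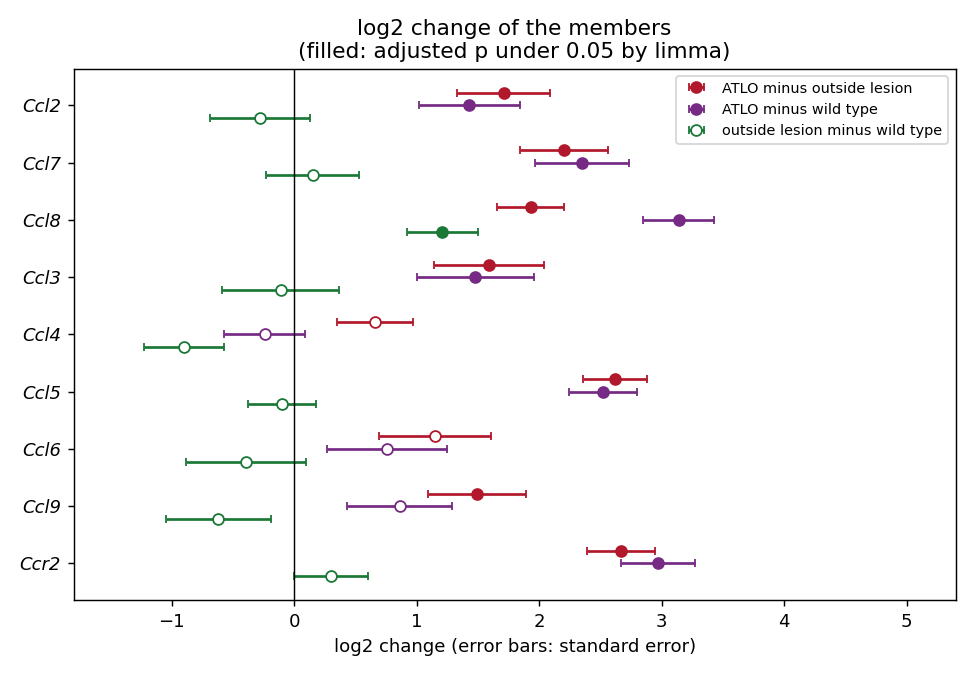
log2 change of the representing probe set of each gene with its standard error, for ATLO minus outside lesion, ATLO minus wild type and outside lesion minus wild type, filled where the limma adjusted p was under 0.05. The changes of ATLO lie between 0.66 and 2.67 against outside-lesion adventitia, and Ccl8 carries the only filled point of outside-lesion against wild-type adventitia.

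ATLO against wild-type adventitia sets diseased tissue against the aorta of animals with intact Apoe. It shares its ATLO arrays with the comparison above. Of the 9 genes, 6 rose (Ccl2, Ccl3, Ccl5, Ccl7, Ccl8 and Ccr2), beside 13.4% of all genes tested. In 5 of these, all but Ccl3, every ATLO array exceeded every wild-type array, which was so for 17.7% of all genes. The median log2 change of the 9 was 1.48, against -0.05 over all genes, with the same limit from Ccl3 and Ccl7.

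Ccr2 read 270.6, 252.8 and 140.6 in wild type, and its ATLO signals averaged 1688 ± 339 against 221 ± 70.5 (SD, n = 4 and 3). The separation was again complete. Its log2 change was 2.97 ± 0.30, or 7.83-fold (limma adjusted p = 6.16e-05), rank 40 of 9055 genes counted from the largest rise. The second Ccr2 probe set read 126.9, 162.6 and 181.8 in wild type and changed by 1.95 ± 0.25 (adjusted p = 2.57e-04). The third, without the filter, changed by 1.55 ± 0.38 (adjusted p = 0.025), against wild-type signals of 73.9, 12.9 and 29.7.

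Ccl8 had the largest change of the 9 here, at 3.14 ± 0.29 or 8.81-fold (limma adjusted p = 4.96e-05). It averaged 11528 ± 3821 in ATLO against 1290 ± 356 in wild type, where the arrays read 878.3, 1496.2 and 1494.2. No ATLO array approached these.

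Ccl5 averaged 2261 ± 749.9 in ATLO against 381 ± 42.2 in wild type, where the arrays read 336.2, 420.0 and 386.1. The wild-type arrays lay inside the outside-lesion range. The log2 change was 2.52 ± 0.28 (limma adjusted p = 9.97e-05).

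Ccl7 read 7.0, 54.0 and 70.7 in wild type, 1 of them under the floor, and changed by 2.35 ± 0.38 (limma adjusted p = 9.44e-04), or by 1.27 with the floor at the 40th percentile (adjusted p = 0.00237). Ccl2 read 82.5, 120.6 and 126.0 in wild type, below all ATLO arrays, and changed by 1.43 ± 0.41 (adjusted p = 0.0198). The Ccl2 call was lost without ATLO replicate 1 (1.26, adjusted p = 0.0566), ATLO replicate 4 (1.34, adjusted p = 0.0519) or wild-type replicate 1 (1.24, adjusted p = 0.0812). It was also lost with no filter on low signals (limma adjusted p = 0.0603).

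Ccl3 read 32.4, 64.5 and 8.4 in wild type, and wild-type replicate 2 lay above ATLO replicate 3. Its log2 change was 1.48 ± 0.48 (limma adjusted p = 0.0376), with 2 wild-type arrays under the floor. The call was lost without wild-type replicate 1 (1.33, adjusted p = 0.117) or replicate 3 (1.33, adjusted p = 0.118). It was also lost with the floor at the 10th percentile (2.05, adjusted p = 0.0821), with the floor at the 40th percentile (0.40, adjusted p = 0.187), with no filter (adjusted p = 0.0592) and with the actin ratio as a covariate (1.35, adjusted p = 0.0607). Ccl4, at 281 ± 79.3 in ATLO against 321.1, 303.6 and 334.5 in wild type, did not pass (-0.24 ± 0.33, adjusted p = 0.633).

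Ccl6 and Ccl9 turned on wild-type replicate 3. Ccl6 read 1326.6, 1505.7 and 5913.9 on the wild-type arrays, and Ccl9 read 1041.1, 1146.4 and 4063.6. The third array was 3.93-fold above the higher of the other two for Ccl6 and 3.54-fold above it for Ccl9, and their second probe sets showed the same at 2.55-fold and 5.30-fold.

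With all arrays, the log2 change of ATLO against wild type was 0.76 ± 0.49 for Ccl6 (limma adjusted p = 0.268) and 0.86 ± 0.43 for Ccl9 (adjusted p = 0.157). Without wild-type replicate 3 it was 1.45 ± 0.41 for Ccl6 (adjusted p = 0.028) and 1.50 ± 0.34 for Ccl9 (adjusted p = 0.0116). The second probe sets did likewise, at 0.72 ± 0.40 (adjusted p = 0.2) with all arrays and 1.27 (adjusted p = 0.021) without that array for Ccl6, and at 1.15 ± 0.52 (adjusted p = 0.119) and 1.95 (adjusted p = 0.00492) for Ccl9. On that array the summed signal of 16 macrophage markers was 1.05-fold the higher of the other two, and that of the 8 measured neutrophil markers 2.55-fold. The neutrophil difference lay in S100a8 and S100a9. The other 6 neutrophil markers summed to 402 on that array, against 402 and 332 on the other wild-type arrays. All of these but Csf3r were below the filter, so that sum is a poor measure of neutrophil content. The part of macrophages and neutrophils in the Ccl6 and Ccl9 signals was not tested.

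Outside-lesion against wild-type adventitia sets Apoe-deficient tissue away from lesions against wild-type tissue, and shares its arrays with both comparisons above. Only Ccl8 rose among the 9 genes, beside 1.40% of all genes tested. No member fell by limma at the adjusted threshold, beside 1.68% of all genes, and 1 was lower at an unadjusted p under 0.05. Ccl8 was higher on every outside-lesion array and Ccl4 lower on every one than on any wild-type array. Among all genes, 7.51% were separated upwards in this way and 13.4% downwards. The median log2 change of the 9 was -0.11, against -0.12 over all genes.

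Ccl8 averaged 2993 ± 811 outside the lesion against 1290 ± 356 in wild type (SD, n = 4 and 3). The 3 groups therefore stood in order, ATLO highest and wild type lowest, with no overlap between neighbours. The log2 change of outside-lesion against wild type was 1.21 ± 0.29, or 2.32-fold (limma adjusted p = 0.0425).

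This call was close to the threshold. It was lost without ATLO replicate 3, without outside-lesion replicate 1, 2 or 4, and without each of the wild-type arrays in turn. The lowest adjusted p among these was 0.0512 and the highest 0.155, the highest being without wild-type replicate 1 at a log2 change of 0.96. It was also lost with no filter (adjusted p = 0.111), with only these groups in the fit (0.0621), with no intensity trend (0.068) and with the actin ratio as a covariate (0.12).

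Ccl4 averaged 185 ± 85.1 outside the lesion against 320 ± 15.5 in wild type, and its log2 change was -0.90 ± 0.33 (limma adjusted p = 0.143). The highest outside-lesion array, at 295.4, lay just under the lowest wild-type array, at 303.6. The log2 changes of the other genes were 0.30 ± 0.30 for Ccr2 (adjusted p = 0.572), 0.15 ± 0.38 for Ccl7 (adjusted p = 0.844), -0.10 ± 0.28 for Ccl5 (adjusted p = 0.86) and -0.11 ± 0.48 for Ccl3 (adjusted p = 0.914). For Ccl2 it was -0.28 ± 0.41 (adjusted p = 0.712), for Ccl6 -0.39 ± 0.49 (adjusted p = 0.669) and for Ccl9 -0.62 ± 0.43 (adjusted p = 0.406). For these genes the outside-lesion and wild-type ranges overlapped.

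The neighbours of the members on the chromosomes moved unevenly. Between Ccl7 and Ccl8 lie Ccl11 and Ccl12. Ccl12, another mouse ligand of Ccr2, averaged 1063 ± 268 in ATLO, 159 ± 114 outside the lesion and 176 ± 114 in wild type. It rose in ATLO against outside-lesion (2.94 ± 0.43, limma adjusted p = 2.08e-04) and against wild type (2.75 ± 0.47, adjusted p = 0.00118). Ccl11, the eosinophil attractant eotaxin, did not pass in either (0.33, adjusted p = 0.331, and 0.48, adjusted p = 0.194).

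In the receptor group, Ccr1, a receptor of Ccl3, Ccl5, Ccl6 and Ccl9, averaged 443 ± 117 in ATLO, 122 ± 59.6 outside the lesion and 198 ± 48.9 in wild type. It rose against outside-lesion (1.97 ± 0.34, limma adjusted p = 6.51e-04) and against wild type (1.16 ± 0.37, adjusted p = 0.0315). Ccr8, the receptor of mouse Ccl8, and Ccr3 and Ccr1l1 were below the filter.

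**Figure D3:**
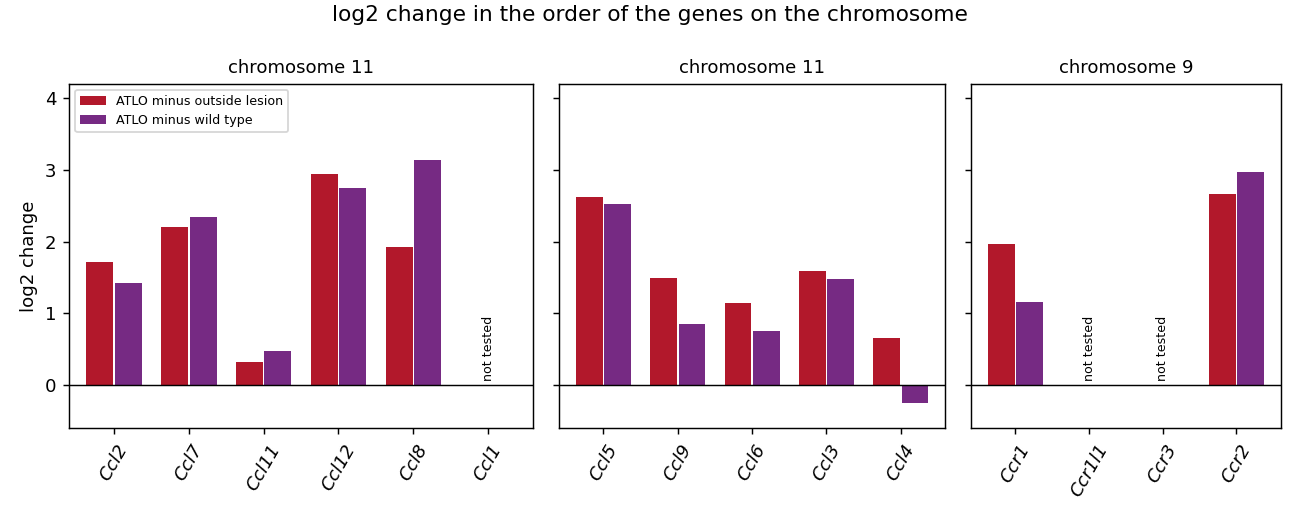
log2 change of ATLO minus outside lesion and ATLO minus wild type for the genes of each group in their order along the chromosome, at equal spacing and not to genomic scale. Ccl12 and Ccr2 stand high beside the low Ccl11 and the untested Ccr3, and Ccl4 is the one gene plotted with a change below 0, against wild type.

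Of 12 other CC chemokines, 5 were measured above the filter. In ATLO against outside-lesion 2 rose, Ccl12 and Ccl17, an attractant of Ccr4-bearing T cells (1.58, limma adjusted p = 0.0138). Against wild type the same pair rose (Ccl17 1.94, adjusted p = 0.00883) and Ccl24, the second eotaxin, fell (-2.09 ± 0.61, adjusted p = 0.0226). Of the other CC receptors, 4 were tested, and all 4 rose in both comparisons of ATLO, namely Ccr1, Ccr6, Ccr7 and Ccr9. Ccr7 and Ccr9 passed the filter only through the ATLO arrays and so had to differ. Ccl17 likewise reached the filter only with the ATLO arrays.

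Ccr7, the homing receptor of naive lymphocytes and mature dendritic cells, was at the floor on all outside-lesion and wild-type arrays, so its fitted change of 2.54 in each comparison depends on the floor. Ccr6, a receptor of B cells and some T cells, rose by 2.53 against outside-lesion (limma adjusted p = 4.43e-04) and by 2.14 against wild type (adjusted p = 0.00394). Of 4 tested atypical receptors, which bind chemokines without signalling through G proteins, Ackr1 rose in ATLO against outside-lesion (0.58, adjusted p = 0.0424) and Ackr3 fell against wild type (-1.18, adjusted p = 0.0108).

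Among chemokines and receptors of the CXC, CX3C and XC families, 15 of 17 tested genes rose in ATLO against outside-lesion and 1 fell, the platelet chemokine Ppbp (-2.43, limma adjusted p = 0.0171). The largest were Cxcl10, induced by interferon (3.02), the neutrophil attractant Cxcl1 (2.98), the retention receptor Cxcr4 (2.76) and Cxcr6, a chemokine receptor of tissue T cells (2.49). Against wild type 13 of 17 rose, led by Cxcl1 (2.91). Of the 17, 6 reached the filter only with the ATLO arrays (Cxcl1, Cxcl2, Cxcl10, Xcl1, Cxcr5 and Cxcr6), and nothing is drawn from the counts.

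Of 14 tested genes that induce chemokines or act below their receptors, 12 rose in ATLO against outside-lesion, led by the cytokine Il6 (3.13), the leukocyte GTPase Rac2 (2.55), the cytokine Il1b (2.52) and Dock2, which activates Rac in migrating lymphocytes (2.30). Against wild type 10 rose, again led by Il6 (3.06). Il6 and Tnf reached the filter only with the ATLO arrays, so the same limit holds for them. In outside-lesion against wild type, limma called none of the 5 other CC chemokines, 4 CC receptors, 4 atypical receptors, 17 other chemokine genes or 14 induction and signalling genes. At an unadjusted p under 0.05 these lists held 0, 1, 1, 5 and 1 genes. The lists were chosen with earlier results of these data known, and their counts stand beside the same backgrounds of all genes, 19.8% higher and 14.9% lower in ATLO against outside-lesion, and 13.4% higher and 14.0% lower in ATLO against wild type.

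Markers of macrophages and lymphocytes were higher in ATLO than outside the lesion together with most members, and those of mast cells were not. The summed signal of 16 macrophage markers ranged over 51004 to 78459 in ATLO, 19414 to 35649 outside the lesion and 26595 to 36658 in wild type. That of 8 measured monocyte markers, which include Ccr2 itself, ranged over 8672 to 10785, 4493 to 5332 and 4929 to 6819 in the same groups. The 9 measured T cell markers summed to between 3869 and 6770 in ATLO, 837 and 1506 outside the lesion, and 1427 and 1685 in wild type.

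The 10 cytotoxic lymphocyte markers summed to between 2524 and 3991 in ATLO, 653 and 1047 outside the lesion, and 847 and 1462 in wild type. The 9 measured B cell markers summed to between 5820 and 18375 in ATLO, 904 and 2340 outside the lesion, and 869 and 6240 in wild type. Wild-type replicate 2, at 6240, thus lay above ATLO replicate 3, at 5820. Against wild type, 5 of 8 tested B cell markers rose in ATLO. In ATLO against outside-lesion 13 of 16 tested macrophage markers rose, as did 7 of 8 T cell, 7 of 8 cytotoxic and 7 of 8 B cell markers. Of 8 monocyte markers 4 rose, and Ccr2, itself a member, was among these. Of the T cell and cytotoxic markers, 5 and 2 reached the filter only with the ATLO arrays. So did the macrophage marker Itgam and the monocyte marker Chil3. Of 7 tested mast cell markers 3 fell by limma and none rose, also at an unadjusted p under 0.05, and their summed signal ranged over 1476 to 4086 in ATLO and 3148 to 5562 outside the lesion. Among other tissue cells, 7 of 10 fibroblast markers rose, while 7 of 8 adipocyte, 4 of 7 endothelial and 2 of 8 smooth muscle markers fell. Fibroblast markers summed to between 61430 and 116550 in ATLO and 32943 and 84617 outside the lesion. For macrophages, T cells, cytotoxic and B cells no marker was called in outside-lesion against wild type by limma (2, 2, 0 and 0 at an unadjusted p under 0.05). Of the 8 monocyte markers 1 fell there, Vcan (-1.06, adjusted p = 0.0379), and of the 10 fibroblast markers 3 fell.

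Cd4 was at the floor on all outside-lesion and wild-type arrays, and the neutrophil markers Camp and Cxcr2 were at the floor in every group. How much of each chemokine's change goes with these cell numbers was not tested.

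Within the ATLO group the members did not share a single order of samples. Ccl6 was highest in replicate 1, then 3, 4 and 2, and the summed macrophage, fibroblast and smooth muscle markers ran in that order too. Ccl8 and the first Ccl9 probe set shared an order that differed from it in its last places, 1, 3, 2 and 4, while the second Ccl9 probe set ran 1, 2, 3 and 4. Ccl5 ran 2, 4, 1 and 3, the order of the summed cytotoxic and B cell markers. Other lists matched as exactly. Adipocyte markers ran in the order of Ccl2 and Ccl7, 1, 4, 3 and 2. Platelet markers ran in that of Ccl8 and the first Ccl9 probe set, and neutrophil markers in that of Ccl3, 1, 4, 2 and 3. The Ccr2 probe sets did not share an order, the first running 4, 3, 2 and 1, the second 3, 4, 1 and 2, and the third 2, 1, 4 and 3. Summed monocyte markers ran in the order of the second Ccr2 probe set, and summed T cell markers in that of the third. With 4 samples such orders are a description, and which cells made each member was not tested.

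**Figure D4:**
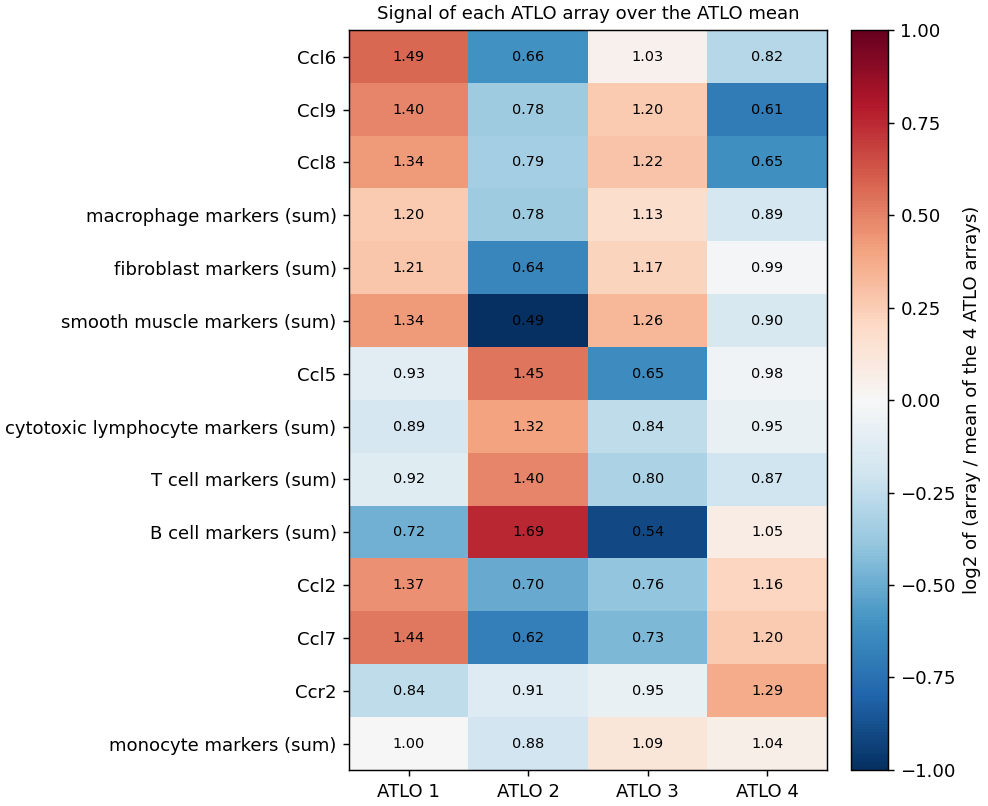
Signal of each ATLO array divided by the mean of the 4 ATLO arrays, for the representing probe sets of members and for summed markers of several cell types, coloured on a log2 scale. Ccl6, Ccl8 and Ccl9 are above 1 in replicates 1 and 3, as are the macrophage, fibroblast and smooth muscle markers. Ccl5 is highest in replicate 2 at 1.45, as are the T cell, cytotoxic and B cell markers. Adipocyte, platelet and neutrophil markers, whose orders also matched members, are among those not plotted.

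Likeness of pattern was measured as the root mean square difference of log2 signal over the 11 arrays, each probe set centred on its own mean, where 0 is an identical pattern. Between members Ccl6 and Ccl9 were closest, at 0.26. Ccl5 and Ccr2 differed by 0.50 and Ccl2 and Ccl7 by 0.53. Outside the members, Ccr2 was nearest to Cxcr6 (0.26) and to Coro1a, an actin-binding protein of leukocytes (0.32), and Ccl5 to Fermt3, the integrin activator of blood cells (0.27), and Glipr1 (0.27).

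Ccl7 was nearest to Tnfaip2 and to Ctss, the protease cathepsin S of antigen-presenting cells (0.36 each). Ccl8 was nearest to the myeloid receptor Cd300lf (0.48) and the retinoic acid enzyme Aldh1a2 (0.49), and Ccl9 to the complement gene C1qc (0.37) and the chaperone Hspa5 (0.38). Ccl2 was nearest to Rnf128 (0.35) and Otulinl (0.36), Ccl6 to Mbd1 (0.33) and Cyp1b1 (0.42), Ccl3 to Ccn4 (0.39) and B3gnt9 (0.41), and Ccl4 to Rrnad1 (0.25) and Gemin2 (0.26). The arrays share the group structure, and these values are a description without a test.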

How the data were processed

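RNA of 11 mouse aortic adventitia samples had been labelled and hybridised to 1-colour Affymetrix-type arrays, 1 array a sample. The authors deposited 1 intensity value per probe set and array, made with GCOS 1.4 per the submitters' processing notes, and the summary method and genome build are not given in the sources used here. The deposited intensity values were already scaled, each array having the same trimmed mean. No further scaling was applied. Values below 35.1, the 20th percentile of all values, were raised to it, and log2 was taken. 64 control probe sets were left out. Probe sets above their array's own 40th percentile on at least 3 arrays were tested, 14988 of 22626. By the platform's annotation, 20380 probe sets had 1 gene symbol, 691 several and 1555 none, and names were updated through RefSeq.

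limma 3.58.1 in R 4.3.3 fitted a mean per group over all arrays with an intensity trend, and p-values were adjusted by the Benjamini-Hochberg method over all probe sets tested, with 0.05 as the threshold. The fit was tested on simulated data. A gene with several probe sets was represented by the one with the highest mean log2 signal. All members were named. From each gene list the called genes with the largest change were named, at most 4 per list and comparison, and the 2 nearest genes by likeness of pattern. Neighbours on the chromosome were named whatever their values. The members and lists were chosen with earlier results of these data known. The number of arrays limits the precision. Alternatives covered the scaling, the floor, the filter, the arrays in the fit, a replicate block, array weights, the trend, an actin covariate and each array left out in turn. Promoter sequences are RefSeq's for GRCm38.p6.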

Additional observations from a re-analysis of the deposited data

Results flagged for a closer look

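The Ccr2 probe set below the filter read 37.5 on outside-lesion replicate 3, while the other 3 outside-lesion arrays lay under the floor of 35.1. After the floor was applied this array stood apart from 3 equal values, although all 4 readings were low. Of 26 groups of 4 arrays examined for such a sample among the member probe sets, this was the one found. Chance alone gives about 1 in 20 only where values are not tied. With 3 values tied at the floor, any reading above it is flagged, so nothing is drawn from this one.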

How the results depend on the processing

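With the filter at the 60th percentile fewer probe sets were tested, and Ccl2, Ccl3 and Ccl7 were no longer among them. Of the members still tested, 4 rose in ATLO against outside-lesion, where 7 did as reported, and 3 against wild type, where 6 did. With each array left out in turn the counts were 6 to 8 for ATLO against outside-lesion, 4 to 7 for ATLO against wild type and 0 to 1 for outside-lesion against wild type. The single call of outside-lesion against wild type, Ccl8, became 0 calls with no filter, with only these groups, with a replicate block, with no trend and with the actin covariate (2 members at an unadjusted limma p under 0.05 in each). The labels do not say whether the replicate numbers pair arrays. Between ATLO and outside-lesion arrays, deviations of same-numbered arrays correlated between 0.04 and 0.15, and those of differently numbered arrays between -0.20 and 0.15. With wild type included, same-numbered arrays correlated between -0.18 and 0.27. These values cannot settle whether arrays were paired, because the ranges overlap and the arrays are few. The replicate block left 7 members called in ATLO against outside-lesion and 5 against wild type, Ccl3 being lost there (1.39, adjusted p = 0.061), and gave Ccl8 an adjusted p of 0.0888 in outside-lesion against wild type. Over all probe sets, 4777 were called in ATLO against outside-lesion and 2552 with the actin covariate. In outside-lesion against wild type 489 were called, 301 with no filter, 202 with only these groups, 189 with the replicate block, 1530 with array weights, 248 with no trend, 86 with the actin covariate and 21 to 887 with an array left out. Directions reversed only in outside-lesion against wild type, and never for a called change. Ccl5 became 0.02 with quantile normalization, 0.07 with equal array medians and 0.33 with the actin covariate, Ccl3 became 0.19 with the actin covariate, and with the floor at the 40th percentile Ccl2 became 0.09 and Ccl7 -0.00. With an array left out the log2 change lay between -0.27 and 0.13 for Ccl5 (reversed without outside-lesion replicate 3) and between -0.26 and 0.18 for Ccl3 (without wild-type replicate 2). For Ccl7 it lay between -0.12 and 0.38 (reversed without wild-type replicate 1, and at -0.05 without outside-lesion replicate 1). For Ccl6 it lay between -0.78 and 0.30, and between -0.67 and 0.31 for its second probe set, and for Ccl9 between -0.97 and 0.01, and between -1.06 and 0.15, all 4 reversed without wild-type replicate 3. The cause was not tested. With equal array medians the median log2 change of all probe sets was -0.015 in ATLO against outside-lesion, where it was 0.102 as deposited, and 0.059 in outside-lesion against wild type, where it was -0.114. Of the log2 changes of members with an array left out, 123 of 129 in ATLO against outside-lesion, 120 of 129 against wild type and 114 of 129 in outside-lesion against wild type kept their direction and their side of the threshold.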

Other observations

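Wild-type replicate 3, on which Ccl6 and Ccl9 stood high, differed from the other wild-type arrays in few genes. Of 9055 genes, 94 (1.04%) were at least 2-fold above both other wild-type arrays there, against 202 (2.23%) for replicate 1 and 129 (1.42%) for replicate 2. These genes were named after their values were seen. S100a9, a calcium-binding protein abundant in neutrophils, led with 449.9 on replicate 3 and 35.4 and 33.8 on the others. Hdc, histidine decarboxylase of mast cells, basophils and neutrophils, read 256.5 against 34.4 and 19.8. Clec4d, a myeloid lectin, read 457.4 against 70.6 and 72.8. Ighg3, an immunoglobulin heavy chain gene, read 553.3 against 97.2 and 66.1, and S100a8, the partner of S100a9, read 575.2 against 121.4 and 114.3. Outside the lesion, replicate 2 had the highest Ccl6 signal (2597.3) and also the highest S100a8 (917.1) and S100a9 (584.1), against at most 241.4 and 197.7 on the other 3 arrays. Outside-lesion replicate 1 read 2465.4 for Ccl6, 241.4 for S100a8 and 86.6 for S100a9, and the second Ccl9 probe set was highest there (294.7, against 211.4 on replicate 2). In ATLO, S100a8 ranged over 908.6 to 1611.8 and S100a9 over 564.1 to 1206.6. The neutrophil markers Camp and Cxcr2 were at the floor on all of these arrays, and the part of neutrophils in the Ccl6 and Ccl9 signals was not tested.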
